A study of Homo sapiens with 24 samples.

Results

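MT1A and MT2A are 2 of the human metallothionein genes, and their transcripts were followed here across 24 bead arrays of pancreatic cancer cells treated with a CDK4/6 inhibitor. Every probe that the authors' lists of changed genes name MT1A or MT2A was taken, which gave 2 probes, 1 for each gene, of 47223 on the array. Both probes were above background on all 24 arrays, and both were among the 24750 probes tested. The genes were thus selected on measured values, namely the ratios in the authors' lists, one of which compares the COLO-357 arrays at 24 h, and on the already known deviation of COLO-357 replicate 2.

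The cells were AsPC-1 and COLO-357, established human pancreatic ductal adenocarcinoma lines, and their total RNA was biotin-labelled and hybridised to Illumina arrays. Each line received vehicle, or PD-0332991 at 5 µM. PD-0332991 is palbociclib, an inhibitor of CDK4 and CDK6, the kinases that cyclin D activates. RNA was taken after 24 h or 72 h, giving 8 groups of 3 arrays. AsPC-1 cells were kept in RPMI 1640 and COLO-357 cells in DMEM, both with serum, so an effect of the medium cannot be told apart from the line. The replicates are numbered 1 to 3 in the labels, and p-values measure the spread between these cultures of 1 line each.

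Metallothioneins are small, cysteine-rich proteins that bind zinc, copper and cadmium and scavenge reactive oxygen species. MT2A is the most widely expressed human member, and MT1A is one of the clustered MT1 genes. Transcription of metallothionein genes rises with free zinc through the factor MTF-1, which binds metal response elements in their promoters. In some members it also rises with glucocorticoids and oxidative stress, and which of these act on MT1A was not examined here. In the RefSeq annotation MT1A and MT2A lie on chromosome 16 in a run of 16 metallothionein genes and pseudogenes. MT1L, MT1E, MT1M and MT1JP lie between them.

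MT1A had no entry among the RefSeq promoters used here, so its promoter was not scanned. The MT2A promoter is shown because the metal response element is the feature that defines the family's regulation. The 250 bases before its start were read from RefSeq on the plus strand of GRCh38.p14, chr16:56608334-56608583. Capitals mark each match, on either strand, to the element's core written as TGCACNC or TGCGCNC.
MT2A promoter: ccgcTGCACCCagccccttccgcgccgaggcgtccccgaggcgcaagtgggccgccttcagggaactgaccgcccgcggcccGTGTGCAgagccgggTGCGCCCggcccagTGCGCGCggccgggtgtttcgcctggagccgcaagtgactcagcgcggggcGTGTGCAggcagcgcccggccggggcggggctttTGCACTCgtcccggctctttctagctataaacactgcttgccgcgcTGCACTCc
This window held 7 matches, none of which overlapped another. At least 1 match stood in 24.8% of 35116 RefSeq promoter windows of the same length, and at least 7 in 8 of them, or 0.0228%. Of the other family members with an entry, MT1H had 8 matches, MT1X had 4, and MT1B and MT4 had 3 each. A match describes the letters only and is not a measured binding site.

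Detected probes numbered 16440 to 20697 per array. Depth is not a property of these arrays, and their number limits the precision. Signals below are the deposited bead intensities, and log2 values are those after background correction and quantile normalisation. The 4 COLO-357 arrays numbered 2 stood apart for both genes in all 4 groups, as described further on, and the COLO-357 results for the members are given with and without them. Their deviation helped to choose the genes. A smaller p without those arrays, or with a replicate block that takes up that deviation, thus supports nothing.

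In AsPC-1 cells, both genes overlapped between drug and vehicle at 24 h and were higher under the drug at 72 h. The MT1A signals of the vehicle cultures at 72 h were 2086.6, 1607.7 and 2352.9, against 4292.2, 3701.4 and 4170.3 under the drug. MT2A signals were 4510.5, 3431.2 and 4414.6 with vehicle and 8383, 7055.8 and 8576.7 with the drug. The lowest treated array lay above the highest vehicle array for both genes. The share of all probes that separate in this way was not counted, so here and below a lack of overlap is only a description. On the log2 scale MT1A was higher by 0.92 ± 0.37 (SE, n = 3 against 3), or 1.89-fold, and MT2A by 0.79 ± 0.47, or 1.73-fold.

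Neither AsPC-1 difference at 72 h passed the test in the fit over all 24 arrays, which pools the spread of both lines (limma, adjusted p = 0.176 for MT1A and 0.408 for MT2A). That fit called 6.06% of all tested probes in this contrast. In the fit on the 12 AsPC-1 arrays alone both passed, with SEs of 0.19 and 0.15 and adjusted p-values of 0.0214 and 0.0156 (limma). There 3.58% of probes were called. The fit on 1 line was added after the data had been seen. The sizes of the differences are the same in both fits, and what differs is the spread set against them.

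At 24 h the treated and vehicle AsPC-1 arrays overlapped. MT1A signals were 1489.9, 1971.1 and 1916.8 with vehicle and 2254.7, 2139.9 and 1913.3 with the drug. MT2A signals were 3649.8, 4394.3 and 3803.1 with vehicle and 5018, 4309.6 and 3653.2 with the drug. The normalised differences were -0.03 for MT1A (95% interval -0.80 to 0.75) and -0.17 for MT2A (-1.15 to 0.81). Neither passed (limma, adjusted p = 0.979 and 0.883), in a contrast where 11.7% of probes were called, and intervals of this width do not show that the drug had no effect. On the authors' scale the differences were 0.19 and 0.07, so their sign depended on the scaling.

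The change of the drug difference from 24 h to 72 h in AsPC-1 was 0.94 ± 0.53 for MT1A and 0.96 ± 0.67 for MT2A. It did not pass over all 24 arrays (limma, adjusted p = 0.418 and 0.544), where 3.08% of probes were called. On the AsPC-1 arrays alone it also missed the threshold, with adjusted p = 0.137 for MT1A and 0.0562 for MT2A (limma, 1.47% called). With the replicate number as a block in COLO-357, the adjusted p-values were 0.0243 and 0.00646 (limma, 3.49% called). The numbers were taken to pair the arrays there, and the block also takes up the deviation of replicate 2. This contrast and that block were added after the data had been seen.

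**Figure D1:**
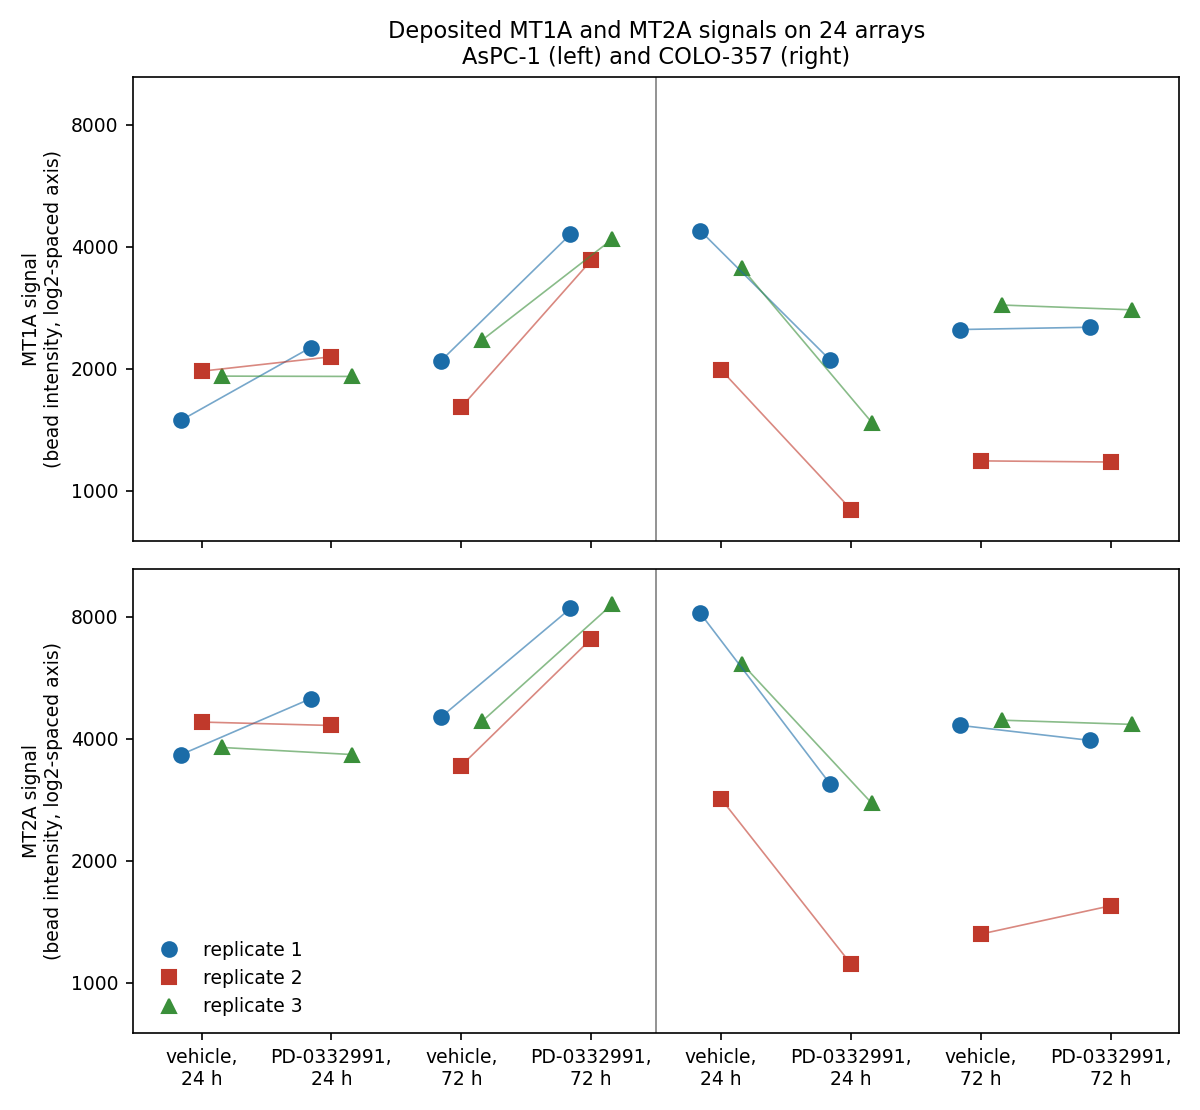
Deposited signal of MT1A (top) and MT2A (bottom) on each of the 24 arrays, on an axis spaced in log2 steps, with AsPC-1 groups to the left of the grey line and COLO-357 groups to the right. Points are single arrays, coloured and shaped by replicate number, and thin lines join the same number with vehicle and with PD-0332991. All AsPC-1 treated arrays at 72 h lie above their vehicle arrays, and COLO-357 replicate 2 is the lowest array in each of its 4 groups for both genes.

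In COLO-357 cells at 24 h the order was the other way round. These differences are among those that put the genes on the authors' list, so they are a description and carry no test. MT2A signals were 8146.6, 2837.5 and 6122.9 with vehicle and 3086.9, 1110.1 and 2769.1 with the drug. MT1A signals were 4377.1, 1984.5 and 3539.4 with vehicle and 2098.1, 898.1 and 1472.5 with the drug. Within each replicate number the treated signal was below the vehicle signal, at ratios of 0.379, 0.391 and 0.452 for MT2A and 0.479, 0.453 and 0.416 for MT1A.

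The groups themselves overlapped, because the vehicle array numbered 2 was below the treated array numbered 1. On the normalised scale the drug difference was -1.04 ± 0.37 log2 (SE) for MT1A and -1.14 ± 0.47 for MT2A, in a contrast with 11.3% of probes called. Leaving out single arrays moved the MT1A difference between -1.39 and -0.63 and the MT2A difference between -1.61 and -0.58. Without the 4 arrays numbered 2 they were -0.98 and -1.04. The authors' deposited table of this contrast gives a ratio of 0.481 for MT1A and 0.437 for MT2A, and the weakest lower ratio among its 298 probes is 0.503. MT1F and MTE, the other metallothioneins named in the lists, are not on that list and had normalised differences of -0.83 and -0.42.

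At 72 h the treated and vehicle arrays of COLO-357 overlapped for both genes. MT1A signals were 2497.9, 1184.1 and 2871.1 with vehicle and 2530.6, 1176.5 and 2794 with the drug. MT2A signals were 4312, 1317.5 and 4441.5 with vehicle and 3959.5, 1547.4 and 4336.6 with the drug. In the deposited signals the treated and vehicle arrays of the same number differed little, with ratios of 0.973 to 1.01 for MT1A and 0.918 to 1.17 for MT2A.

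The size of the COLO-357 difference at 72 h depended on the normalisation. After quantile normalisation MT1A was 0.47 ± 0.37 higher with the drug and MT2A 0.50 ± 0.47, and neither passed (limma, adjusted p = 0.512 and 0.607) where 11.3% of probes were called. With the replicate block in both lines the limma adjusted p-values were 0.0419 and 0.0101 (13.7% called). With the block in COLO-357 alone they were 0.059 and 0.0176 (13.4% called). Either block takes up the deviation of replicate 2, so these smaller p-values support nothing. Without the 4 arrays numbered 2 the differences were 0.50 and 0.42, and neither passed (limma, adjusted p = 0.155 and 0.133, with 9.78% called). On the authors' scaled intensities the differences were only 0.07 and 0.11, and with the replicate block on that scale the adjusted p-values were 0.764 and 0.603 (limma). Scaling each array to its 75th percentile gave 0.24 and 0.28. With single arrays left out the normalised differences ran from 0.07 to 0.91 for MT1A and from -0.09 to 1.01 for MT2A.

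The median of all tested probes in this contrast was -0.01 after quantile normalisation, -0.08 on the authors' scale and 0.05 after 75th percentile scaling. Of the probes called, 50.9% were higher with the drug after quantile normalisation and 12.5% on the authors' scale. No call for MT1A or MT2A in COLO-357 at 72 h held under all 3 of these scalings.

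**Figure D2:**
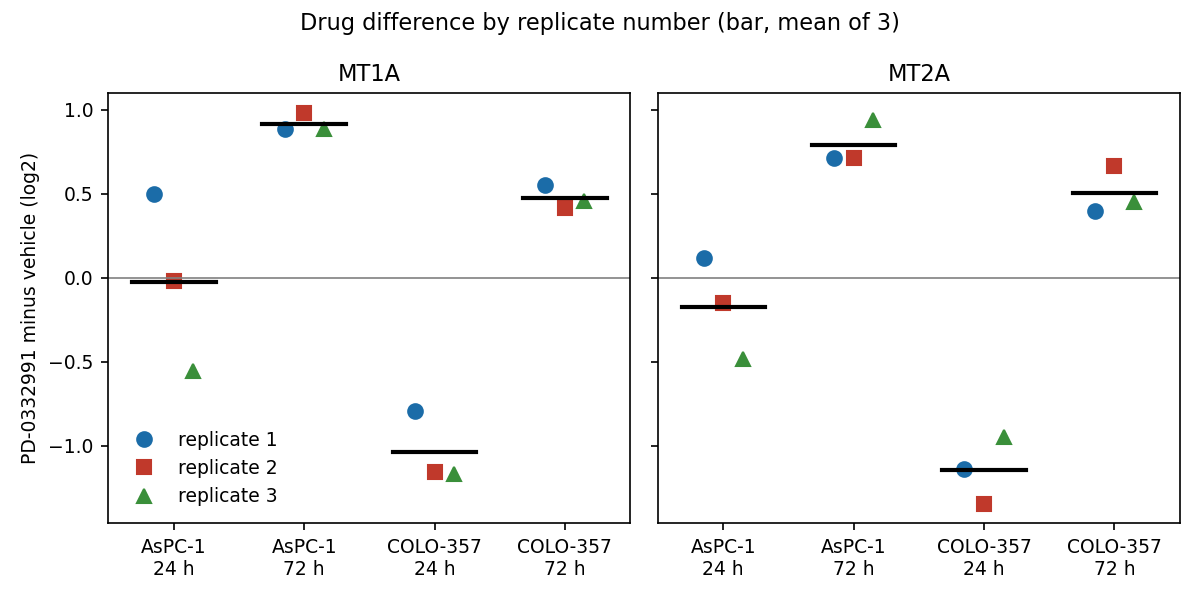
Log2 difference of PD-0332991 minus vehicle for arrays of the same line, time and replicate number, for MT1A (left) and MT2A (right) after quantile normalisation, with the mean of the 3 numbers as a black bar. AsPC-1 at 72 h is above 0 and COLO-357 at 24 h below 0 for all 3 numbers. COLO-357 at 72 h lies between 0.40 and 0.66 on this scale. The numbers were taken to pair the arrays only in COLO-357.

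The drug difference at 72 h was also compared between the lines. COLO-357 minus AsPC-1, it was -0.44 ± 0.53 for MT1A and -0.29 ± 0.67 for MT2A. The difference between lines did not pass (limma, adjusted p = 0.755 and 0.891), and 3.38% of probes were called. With the replicate block alone it did not pass either (limma, adjusted p = 0.274 and 0.416). On the authors' scaled intensities it was larger, at -0.91 and -0.82, and did not pass without the block (limma, adjusted p = 0.201 and 0.416). With both changes together it passed (limma, adjusted p = 0.00203 and 0.0026, with 15.2% of probes called). The median of all probes was itself -0.12 on that scale. After 75th percentile scaling with the block it was -0.75 and -0.64 (limma, adjusted p = 0.0399 and 0.0622, with 7.53% called). Its direction was the same for both genes on the 4 scalings, but with single arrays left out it ran from -0.85 to -0.0095 for MT1A and from -0.88 to 0.22 for MT2A. The highest of these values came without the treated COLO-357 array numbered 2. For MT2A the difference also turned to 0.031 without the COLO-357 vehicle array numbered 1 at 72 h. Without all 4 arrays numbered 2 the differences were -0.41 and -0.37.

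Time in culture was compared within treatment. In AsPC-1 vehicle cultures the arrays at 24 h and 72 h overlapped for both genes, with differences of 0.03 ± 0.37 for MT1A and -0.11 ± 0.47 for MT2A (limma, adjusted p = 0.984 and 0.952, with 2.16% of probes called). In treated AsPC-1 cultures all 3 arrays at 72 h lay above all 3 at 24 h for both genes, and the share of all probes doing so was not counted. The differences were 0.97 ± 0.37 for MT1A and 0.85 ± 0.47 for MT2A. They did not pass over all 24 arrays (limma, adjusted p = 0.158 and 0.380, with 4.84% called) and passed on the AsPC-1 arrays alone (limma, adjusted p = 0.0156 and 0.00966, with 2.93% called). The latter fit leaves out the COLO-357 arrays numbered 2, so these calls support nothing.

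COLO-357 comparisons over time use the 24 h arrays that chose the genes, so they too are given without a test. In treated cultures MT1A was 1.27 ± 0.37 higher at 72 h than at 24 h, and MT2A 1.19 ± 0.47, in a contrast with 21.3% of probes called. Without the arrays numbered 2 they were 1.29 and 1.14. All 3 replicate numbers shared that direction, with MT1A differences of 1.14, 1.22 and 1.45 and MT2A differences of 1.21, 1.29 and 1.06. In vehicle cultures both genes were lower at 72 h in all 3 numbers. The MT1A differences were -0.21, -0.36 and -0.17, and those of MT2A -0.32, -0.72 and -0.33, where 17.6% of probes were called. Without the vehicle array numbered 2 at 72 h the group difference turned to 0.16 for MT1A and 0.13 for MT2A, and without all arrays numbered 2 it was -0.19 and -0.33.

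Set side by side over the 8 groups, the highest mean of each gene was in AsPC-1 at 72 h with the drug and the lowest in COLO-357 at 24 h with the drug. For MT1A these means were 12.18 ± 0.14 and 9.94 ± 0.72 log2 (SD, n = 3). The 6 groups between them ran from 10.74 to 11.27, and the neighbours in that order differed by less than their spread. For MT2A the highest and lowest means were 13.09 ± 0.19 and 10.60 ± 0.98. The other AsPC-1 groups followed at 12.40, 12.30 and 12.23, and the other COLO-357 groups at 11.79, 11.74 and 11.28. Within each of these sets of 3, neighbours in the order differed by less than the spread of the replicates.

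Between the lines, vehicle cultures at 72 h differed by -0.53 ± 0.37 for MT1A and -1.01 ± 0.47 for MT2A, COLO-357 minus AsPC-1. Neither passed (limma, adjusted p = 0.241 and 0.0749), although 55.5% of all probes were called. The MT2A arrays of the lines did not overlap on the normalised scale, and the share of all probes doing so was not counted. Without the 4 COLO-357 arrays numbered 2 the differences shrank to -0.13 and -0.42. At 24 h the differences were -0.25 for MT1A and -0.66 for MT2A, with 52.2% of probes called and no test since those COLO-357 arrays chose the genes. On the authors' scale they were 0.45 and 0.040, where the median of all probes was 0.14. After 75th percentile scaling they were 0.059 and -0.36, where that median was -0.27. MT1A thus changed sign between scalings, while MT2A lay below the median of all probes on each of the 3. Without the arrays numbered 2 the normalised differences were 0.093 and -0.20.

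COLO-357 replicate 2 was low for both genes whatever the treatment or time. This deviation was known when the genes were chosen and is described without a test. Against the mean of replicates 1 and 3, MT2A stood at -1.39 and -1.69 log2 at 24 h, with vehicle and drug in turn, and at -1.77 and -1.53 at 72 h. MT1A stood at -1.04 and -1.22 at 24 h and at -1.21 and -1.30 at 72 h. The mean deviation was -1.59 for MT2A, a 3.02-fold lower level, and -1.19 for MT1A, a 2.29-fold lower level.

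Few other probes did the same. Of the 24750 tested, 14 probes (0.0566%) were at least 1 log2 lower in replicate 2 in all 4 COLO-357 groups, and 30 (0.121%) were at least 1 log2 higher. By mean deviation MT2A ranked 10 and MT1A 32 from the lowest of all probes. The same count was 0 in both directions for each AsPC-1 number and for COLO-357 replicate 3, and 1 lower and 0 higher for COLO-357 replicate 1. On the authors' scale 5 probes were lower and 10 higher, and the mean deviations there were -1.47 for MT2A and -1.08 for MT1A. MT1A was not among those 5. Its scaled intensity with vehicle at 24 h was 1532.58 in replicate 2, against 3123.39 and 2898.38, which is less than 1 log2 lower.

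On the normalised scale only 5 of the probes beyond this distance had a name. HYAL1, a hyaluronidase, was lower together with MT1A and MT2A, at -1.13 to -1.62 log2. OPN3, an opsin, was higher by 1.16 to 1.74, and RARRES1, a retinoic acid responsive gene, by 1.03 to 1.99. These names were singled out after their values were seen. The 4 COLO-357 arrays numbered 2 resembled each other over all probes too, with correlations of their deviations from the group mean between 0.365 and 0.467. What set replicate 2 apart was not tested.

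**Figure D3:**
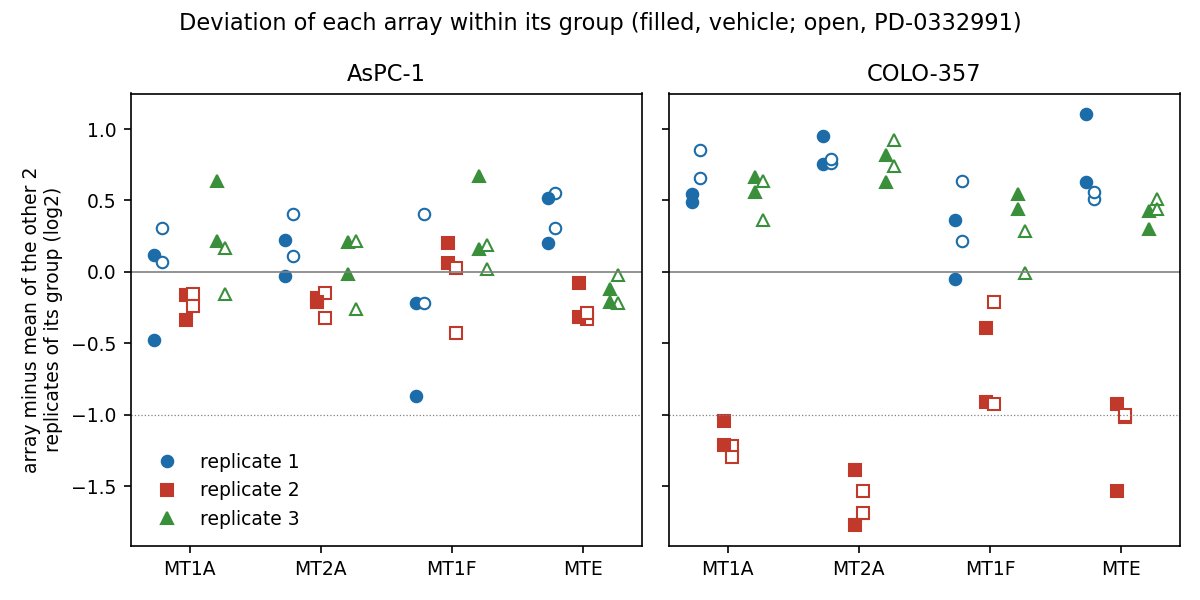
Each point is 1 array, plotted as its log2 value minus the mean of the other 2 replicates of its group, for MT1A, MT2A, MT1F and MTE in AsPC-1 (left) and COLO-357 (right). Filled points are vehicle and open points PD-0332991, and the dotted line is at -1. Replicate 2 of COLO-357 lies between -1.04 and -1.77 for MT1A and MT2A in all 4 groups, and no AsPC-1 array comes near that distance for these genes.

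The low replicate set the spread of both genes in COLO-357. Their SDs there were 0.60 to 0.75 for MT1A and 0.80 to 1.02 for MT2A over the 4 groups, at percentiles from 99.4 to 99.9 among all tested probes of each group. In AsPC-1 the SDs were 0.14 to 0.38 for MT1A and 0.13 to 0.24 for MT2A, at percentiles from 22.9 to 73.9.

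MT1A and MT2A followed each other closely over the arrays. With each line centred on its own mean, Pearson's r was 0.957 over the 24 arrays, 0.941 over the 12 of AsPC-1 and 0.975 over the 12 of COLO-357. For deviations from the group means it was 0.958. Without the 4 COLO-357 arrays numbered 2, r was 0.945 with lines centred and 0.615 for deviations from the group means, over 20 arrays. These correlations describe arrays that share groups, hybridisations and, in COLO-357, the low replicate. The probe sequences were not used here, and whether either probe also binds transcripts of near-identical family members was not tested.

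**Figure D4:**
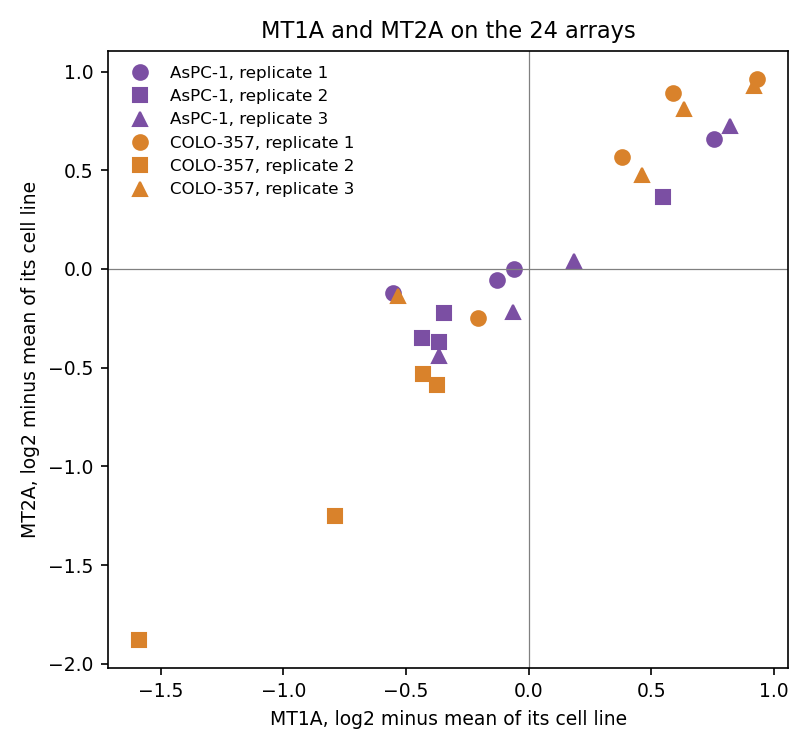
Log2 values of MT1A (horizontal) and MT2A (vertical) on each of the 24 arrays, each minus the gene's mean in that cell line. Colours are cell lines and shapes are replicate numbers. The points lie along 1 rising line (r = 0.957), and the 4 lowest MT2A values are the COLO-357 arrays numbered 2.

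Of 10 other metallothionein genes sought by name, 1 was named in the authors' lists, MT1F, an MT1 gene near MT1A on chromosome 16. It was above background on 23 of 24 arrays. In COLO-357 at 72 h its signals were 222.9, 193.4 and 269.6 with vehicle and 128.1, 117.7 and 129 with the drug. They did not overlap, and the share of all probes doing so was not counted. MT1F fell by 1.02 ± 0.27 log2 there (limma, adjusted p = 0.0154), where 5.54% of all probes were called lower. The direction was the same on every scaling, with a difference of -0.58 without background correction, and the call was lost without the vehicle array numbered 3 (adjusted p = 0.0849, limma) or the treated array numbered 3 (0.0518).

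In COLO-357 at 24 h it fell by 0.83 ± 0.27 (limma, adjusted p = 0.0478, with 5.78% of probes called lower), a call lost without any one of 4 of the 6 arrays compared and on the COLO-357 arrays alone (limma, adjusted p = 0.0543). Without background correction it was -0.44 and the call was lost (limma, adjusted p = 0.102). The call was also lost with no filter on dim probes (0.0939), with only the groups compared (0.113) and without the arrays numbered 2 (0.0545). In AsPC-1 at 72 h its difference was -0.55, which did not pass (limma, adjusted p = 0.286), while MT1A and MT2A were higher with the drug. COLO-357 minus AsPC-1, the MT1F difference in vehicle cultures was -1.75 ± 0.27 at 24 h and -2.07 ± 0.27 at 72 h, and both passed (limma, adjusted p = 8.5e-06 and 8.4e-07), where 52.2% and 55.5% of all probes were called. On the authors' scale they were -0.79 and -1.24 and still passed. Its r with MT1A, with lines centred, was 0.418, and with MT2A it was 0.389. Without the arrays numbered 2 these were 0.137 and 0.0434. For deviations from the group means over all 24 arrays they were 0.781 and 0.683. Without the arrays numbered 2 those deviations gave 0.728 and 0.209.

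Another probe is named MTE in the deposited lists. RefSeq gives MTE as an older name of MT1IP, a transcribed pseudogene of the family, and the name was kept as deposited. It was above background on 21 of 24 arrays. With lines centred, MTE was the next most like gene after the members themselves. Its r was 0.912 to MT2A and 0.867 to MT1A over the 24 arrays, and 0.883 and 0.789 without the 4 arrays numbered 2. For deviations from the group means, where other genes were more like, it was 0.921 and 0.856. Without the arrays numbered 2 this fell to 0.736 for MT2A and 0.202 for MT1A. In AsPC-1 at 72 h MTE was 0.66 ± 0.37 higher with the drug (limma, adjusted p = 0.361). The arrays did not overlap, and the share of all probes doing so was not counted. MTE passed there with the replicate block in both lines (limma, adjusted p = 0.00561) and in COLO-357 only (0.0289), and not on the AsPC-1 arrays alone (0.0975). In COLO-357 either block takes up the deviation of replicate 2. In COLO-357 replicate 2 it stood at -0.93 to -1.53 and was not above background in 3 of the 4 groups.

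All 4 probes were also on the authors' deposited table of genes changed by a cyclin knockdown in AsPC-1. MT1F and MTE were named only through that table, so their presence on it was fixed by how they were found. That all 4 stand there is thus not a result, and the weakest lower ratio on it is 0.5. The authors' deposited table gives ratios of knockdown over control of 0.37 for MT1A, 0.38 for MT2A, 0.46 for MT1F and 0.40 for MTE, among 95 probes. The arrays behind it were not analysed here, and these ratios have no error. MT1A and MT2A were lower after that knockdown and higher in AsPC-1 after 72 h of the CDK4/6 inhibitor.

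Other named genes were ranked by their likeness to the members among 604 symbols of the deposited lists. With lines centred, MT2A was followed by TUBA1A (r = 0.668), an alpha-tubulin, CTXN1 (0.656) and KRT80 (0.585), a keratin. MT1A was followed by CTXN1 (0.744), PEA15 (0.643), a regulator of ERK signalling, and TUBA1A (0.606). Over all tested probes 55 had an r to MT2A of at least that of TUBA1A. Their drug differences were not alike in AsPC-1 at 72 h, where PEA15 was 1.27 higher, KRT80 1.57 higher, TUBA1A at -0.17 and CTXN1 at -0.13. These values are given as a description.

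For deviations from the group means the most like named genes were others. MT2A was followed by CAV1 (r = 0.947), the caveolin of membrane pits, LAMA3 (0.942), a laminin chain, BTBD11 (0.933) and IL20RB (0.922), a cytokine receptor chain. MT1A was followed by LFNG (0.915), a modifier of Notch receptors, IL20RB (0.902), CAV1 (0.891) and BTBD11 (0.889). All 5 of these genes were lower in COLO-357 replicate 2 in each of the 4 groups, at -0.64 to -1.92 log2. Without those 4 arrays the r to MT2A was 0.192 for CAV1, 0.577 for LAMA3, -0.16 for BTBD11 and 0.0238 for IL20RB. The r to MT1A was then 0.533 for LFNG, 0.482 for IL20RB, -0.0743 for CAV1 and -0.14 for BTBD11, so the likeness by this measure rested largely on the arrays numbered 2.

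Of 20 genes of metal handling, which include the zinc sensor MTF1 and the zinc transporters, none was named in the lists, so the zinc response was not followed here. Of 31 genes of the oxidative stress response 5 were named. In AsPC-1 at 72 h 4 of them were called lower and none higher, where 2.79% of all probes were called lower. The median was -1.03 over the 5 against -1.1e-04 over all probes. All 5 were named only because the authors' lists of changed genes hold them, so this count and median are a description. AKR1B10, an aldo-keto reductase named through the knockdown list, fell by 0.997 ± 0.17 (limma, adjusted p = 7.1e-04), and ALDH3A1, an aldehyde dehydrogenase named through the COLO-357 lists, fell by 1.03 ± 0.17 (limma, adjusted p = 4.0e-04). AKR1C3 and GPX2, at -1.41 and -3.38, were named through the list of this contrast and carry no test. The fifth, TXNIP, differed by 0.08.

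The same 5 genes did otherwise in the other comparisons. In COLO-357, 2 were called higher and none lower at 24 h, where 5.52% of all probes were called higher, and again at 72 h, where 5.74% were. These were ALDH3A1, at 1.25 and 1.67, and TXNIP, at 1.24 and 2.17, both named through the lists of those contrasts and given without a test. In AsPC-1 at 24 h 1 was called higher, ALDH3A1 at 0.63, and 1 lower, GPX2 at -1.20. Of the 24750 probes tested, 1468 were called higher and 1432 lower there. Over time in AsPC-1 vehicle cultures 3 were called higher, where 1.35% of all probes were. AKR1B10 rose there by 0.79 ± 0.17 (limma, adjusted p = 0.0157), and AKR1C3 at 1.29 and GPX2 at 2.92 share the vehicle arrays of the list that names them and carry no test. The drug difference of AKR1B10 at 72 h uses the same vehicle arrays, so these 2 results are not separate. In treated AsPC-1 cultures AKR1B10 differed by 0.02 over time.

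Of 11 glucocorticoid-responsive genes 3 were named. TSC22D3, a glucocorticoid-induced leucine zipper gene named through the knockdown list, rose in COLO-357 by 1.07 ± 0.22 at 24 h (limma, adjusted p = 0.0019, with 5.52% called higher) and by 1.35 ± 0.22 at 72 h (limma, adjusted p = 2.6e-04, with 5.74% called higher). SGK1 was at -0.21 and DUSP1 at 0.40 in COLO-357 at 24 h, and neither passed (limma, adjusted p = 0.695 and 0.282). At 72 h SGK1 was at -0.69, on the list of that contrast and so without a test, and DUSP1 at -0.41 did not pass (limma, adjusted p = 0.250), which put the median of the 3 at -0.41. In AsPC-1 at 72 h TSC22D3 was 0.49 higher and SGK1 0.41 higher without passing (limma, adjusted p = 0.232 and 0.341), and DUSP1, on the list of that contrast, was 2.04 higher. HSPB8, the only named gene of 11 heat shock genes, rose by 1.05 ± 0.26 in COLO-357 at 72 h (limma, adjusted p = 0.0107). In the other 3 drug comparisons HSPB8 was at 0.78 and 1.93 in AsPC-1 at 24 h and 72 h and at 0.54 in COLO-357 at 24 h. These lists hold only genes that the authors selected for a change in these cells, so their directions are not independent evidence, and nothing particular to the lists is read from these counts. None of the epithelial, stromal, acinar, endocrine, immune or endothelial marker genes sought was named, and the labelled cell type was not checked.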

How the data were processed

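Per the file headers the deposited signal table holds 1 bead intensity per probe and array with a detection p-value, linear and without normalisation. Its software is not named. The authors' value table holds the same intensities scaled by 1 factor per array, as checked here. The authors' deposited lists of changed genes, 6 in all, give a ratio of treated over control with no error, and pair probes with gene symbols only there.

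From these signals neqc (limma 3.58.1, R 4.3.3) removed background, using the detection p-values to find it, then quantile-normalised and gave log2 values with an offset of 16. The test kept probes detected at 0.05 in 3 or more arrays. One mean per group was fitted to all 24 arrays (lmFit and eBayes, 16 residual and 5.84 prior degrees of freedom), two-sided, adjusted by Benjamini-Hochberg over 24750 probes, and called under 0.05. The fit was tested on simulated data, drawn for each probe with the same SD in every group and no replicate effect. That setting lacks the members' unequal spread between the lines, so it does not bear on their calls. Figures used matplotlib 3.10.9 in Python 3.11.15.

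The members and gene lists were chosen with earlier results of these data known. MT1A and MT2A get no p in contrasts with COLO-357 arrays at 24 h, whose drug contrast lists them, which leaves out tests planned for 4 further contrasts. Named genes are those of the fixed lists and the 5 most like each member by r. Replicate numbers were taken to pair arrays in COLO-357. Deviations from group means there correlated at 0.111 to 0.467 in every pair of the same number, above a limit of 0.1, and not in AsPC-1 (-0.0261 to 0.120). Deviations within a group of 3 are tied to each other, so the shift of replicate 2 also links numbers 1 and 3. The same number correlated best for only 2 of 3 arrays between COLO-357 vehicle and drug at each time. It did so for all 3 between AsPC-1 vehicle and drug at 72 h.

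Alternatives were the authors' scaled intensities, 75th percentile scaling, no background correction, no detection filter or detection on all 24 arrays, the replicate block, array weights, only the groups compared and each array left out. The fits on 1 line, without the COLO-357 arrays numbered 2, with the block in COLO-357 only, and with block and scaling together were added after seeing the data. The slide as a block was not run, since the headers name no slides.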

Additional observations from a re-analysis of the deposited data

Results flagged for a closer look

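In COLO-357 the drug difference of 3 metallothionein probes ran one way at 24 h and the other way at 72 h in all 3 arrays of the same replicate number. The 72 h difference minus the 24 h difference was 1.51 log2 for MT1A, 1.65 for MT2A and 0.60 for MTE. The difference between times was not tested, since the 24 h contrast put MT1A and MT2A on the authors' list. For these 2 genes the fall at 24 h was thus part of their choice. How many of all tested probes turn in this way was not counted, so the pattern is only a description. On the authors' scaled intensities the 3 values at 72 h were 0.13, 0.06 and 0.03 for MT1A and -0.02, 0.30 and 0.04 for MT2A, so 1 of the 3 MT2A values no longer opposed the 24 h difference. For MTE they were -0.04, 0.07 and 0.10. MTE was not above background in COLO-357 replicate 2 in 3 of the 4 groups.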

How the results depend on the processing

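Without counting arrays left out singly, 484 alternative values of the 4 metallothionein probes kept their side of the threshold or, where untested, stayed within 1 SD, 57 newly passed, 6 no longer passed, 4 turned direction and 1 moved beyond the spread. Of the 484, 7 turned sign with no call. They were the AsPC-1 drug difference at 24 h, at 0.19 and 0.18 for MT1A and 0.07 and 0.06 for MT2A on the authors' and 75th percentile scales, the AsPC-1 vehicle time change of MT2A at 0.12 and 0.05 there, and that of MT1A at -0.0043 with array weights.

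The AsPC-1 differences of 0.92 for MT1A and 0.79 for MT2A at 72 h, and of 0.97 and 0.85 between times under the drug, newly passed with the replicate block (limma adjusted p = 7.5e-04, 4.8e-04, 3.9e-04 and 2.0e-04), with the block in COLO-357 only, with only the groups compared, on the line's 12 arrays and without the 4 COLO-357 arrays numbered 2. At 72 h the adjusted p ranged from 1.9e-05 to 0.388 for MT1A and from 1.6e-05 to 0.611 for MT2A over 19 alternatives, 7 of which passed. The fits without the arrays numbered 2 leave out the values that helped to choose the genes, and the block takes up their deviation. For AsPC-1 the fits on only the groups compared and on the line's 12 arrays leave those arrays out too. Calls gained in these ways support nothing. With the block the values were 0.98 and 0.93 on the authors' scale and 0.99 and 0.92 after 75th percentile scaling. Their change from 24 h, 0.94 and 0.96, passed with either block and without the arrays numbered 2. With the block, 0.47 and 0.50 in COLO-357 at 72 h passed (MT1A not with the block in COLO-357 only), as did the line differences of -0.91 and -0.82 on the authors' scale and -0.75 for MT1A after 75th percentile scaling. MT2A between vehicle lines at 72 h passed with a block by number, which does not pair the lines (-1.01), after 75th percentile scaling (-0.92, with the median of all probes at -0.26) and without the arrays numbered 2 (-0.42). The block changed no other call of MT1A or MT2A, and the numbers were taken to pair arrays in COLO-357 only.

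The vehicle line difference at 24 h turned to 0.45 on the authors' scale, 0.059 after 75th percentile scaling and 0.093 without the arrays numbered 2 for MT1A, and to 0.040 on the authors' scale for MT2A. Single arrays left out gave -0.44 to 0.093 there for MT1A, -0.59 to 0.16 and -0.92 to 0.13 for MT1A and MT2A over time in COLO-357 vehicle cultures, -0.62 to 0.13 and -0.81 to 0.24 for that change between lines, and -1.33 to -0.42 for MT2A between lines at 72 h. Each turn came without the COLO-357 vehicle array numbered 2 of 24 h or 72 h, and the adjusted p of MT2A between lines was 0.0389 without replicate 1 and 0.0478 without replicate 3 of COLO-357 vehicle at 72 h.

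Counts of called probes moved too. On the authors' scale they were 5873 for the drug in COLO-357 at 72 h, 450 for the drug change in AsPC-1 and 2989 for the line difference at 72 h. After 75th percentile scaling the first was 4369. Array weights gave 4413 and 4823 for the drug in COLO-357 at 24 h and 72 h, 350 and 6566 over time in AsPC-1 and COLO-357 vehicle cultures, and 1719 for the line difference. Detection on all 24 arrays gave 7927 and 7873 between vehicle lines, with fewer probes tested. The block gave 872 over time in AsPC-1 vehicle cultures. With only the groups compared the counts were 674 and 961 for the drug in AsPC-1 at 24 h and 72 h, 3 and 714 over time in AsPC-1 vehicle and treated cultures, 912 for the vehicle time change between lines and 365 for the drug change in AsPC-1. The line's 12 arrays gave 1813, 887, 114, 726 and 365 in the same AsPC-1 contrasts. Without the arrays numbered 2 the counts were 2480 over time in COLO-357 vehicle cultures and 1356 for its difference between lines.

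The share of called probes that were higher moved on the authors' scale from 50.6% to 71.2% and 48.9% to 35.8% for the drug at 24 h in AsPC-1 and COLO-357, from 62.6% to 93.7% and 55.5% to 42.1% over time in their vehicle cultures, from 68.9% to 84.7% and 53.2% to 21.1% in their treated cultures, from 53.3% to 73.6% and 51.9% to 63.3% between vehicle lines at 24 h and 72 h, from 54.2% to 27.2% for the vehicle time change between lines and from 57.1% to 10.2% for the line difference at 72 h.

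With single arrays left out, counts ran from 145 to 861 and 2799 to 3833 over time in AsPC-1 and COLO-357 vehicle cultures, 831 to 1317 for the drug in AsPC-1 at 72 h, 1840 to 2197 and 1705 to 2998 in COLO-357 at 24 h and 72 h, 489 to 1022 for the drug change in AsPC-1, 485 to 930 for the line difference at 72 h and 1303 to 2628 for the vehicle time change between lines. In COLO-357 replicate 2, 5 probes were lower on the authors' scale and 5 without background correction. MT1A, at a mean of -1.08, was not among the 5 on the authors' scale. The causes were not tested. Signal over background limits MTE and MT1F in COLO-357, and 3 arrays a group limit every interval.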
